A study of Mus musculus with 6 samples.

Results

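Kupffer cells and recruited macrophages were followed through 35 genes in RNA-seq libraries of primary hepatocytes from fibrotic mice. The members were chosen by gene symbol, and all 35 were found among the 34745 genes counted. They were kept in 3 groups. The 6 resident Kupffer genes were Clec4f, Timd4, Cd5l, Marco, Vsig4 and Folr2. The 6 recruited or scar-type genes were Ly6c2, Cx3cr1, Trem2, Gpnmb, Cd9 and Mmp12, and the other 23 were genes of macrophages in general.

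Each library came from the hepatocytes of male FOXA2flox/flox mice aged 12 weeks, whose Foxa2 alleles are flanked by loxP sites, and there were 3 libraries in each of 2 groups, numbered 1, 2 and 4 by the labels. The FOXA2f/f+CCl4 group received AAV8-TBG-Control and the FOXA2H-KO+CCl4 group received AAV8-TBG-Cre, in which the TBG promoter drives Cre recombinase in hepatocytes, so that the macrophages themselves were not the target of the deletion. Virus was given through the tail vein 2 weeks before the first CCl4, a hepatotoxin, and both groups then received 0.25 ml/kg CCl4 2 times per week for 4 weeks and were sacrificed on day 3 after the last injection. There was no group without CCl4 among these libraries, and no source used here says whether a library was pooled from several mice. The p-values therefore measure the spread between these libraries.

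Kupffer cells are the macrophages that live in the liver sinusoids, where they clear particles, bacteria and aged blood cells from portal blood. When they are lost during injury, blood monocytes enter and can become macrophages, and in fibrotic liver some of these take on a lipid-handling, scar-associated state marked by Trem2, Gpnmb and Cd9. Hepatocyte preparations made by collagenase perfusion and low-speed centrifugation can still carry non-parenchymal cells, and the source of the macrophage transcripts in these libraries was not tested. In such bulk samples, fewer macrophages and less RNA per macrophage cannot be told apart.

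The labels were checked first. Foxa2 (Ensembl ENSMUSG00000037025), the deleted gene, had 442, 246 and 516 counts in FOXA2f/f replicates 1, 2 and 4 and 28, 19 and 35 in FOXA2H-KO replicates 1, 2 and 4. It fell by 3.85 on the log2 scale (SE 0.31, edgeR quasi-likelihood test, adjusted p = 0.0313, n = 3 per group) and was the 1 gene called among 14417 tested. Leaving out any library other than FOXA2f/f replicate 2 ended that call, with adjusted p-values of 0.0624 to 0.499 and log2 fold changes of -4.17 to -3.63. Total counts lay between 20983455 and 28327765. The 10 hepatocyte markers, with Alb at a mean of 40449 FPKM, dominated every library: their summed level was 105311 to 154499 CPM, the count scaled to the size of the library,, against 999 to 4449 CPM for the 35 macrophage genes. Adgre1, Csf1r and Cd68, the markers set for macrophages and themselves members, had between 477 and 11395 counts in each library. Macrophage transcripts were thus present in every library, and these counts do not show which cells they came from.

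None of the 35 genes separated FOXA2H-KO from FOXA2f/f hepatocyte preparations. None was called at an adjusted p under 0.05 and a fold change of at least 2 (0.00694% of all genes tested were), and their adjusted p-values lay between 0.949 and 0.999 by edgeR's quasi-likelihood test. DESeq2 and edgeR's exact test also called 0 members. At an unadjusted p under 0.05, 0 members were higher (1.98% of all genes) and 0 were lower (3.18% of all genes). There were 0 members with every FOXA2H-KO library above every FOXA2f/f library (4.54% of all genes) and 0 with every one below (5.96% of all genes). The fitted log2 fold change, FOXA2H-KO over FOXA2f/f, was above 0 for 32 of 35 members, against 47.8% of all genes, with a median of 0.33 against -0.012 for all genes. The groups had different medians: 0.09 for the resident genes, 0.36 for the general genes and 0.70 for the recruited or scar-type genes. The members move together through the same libraries, so that these counts and medians are far from independent observations.

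**Figure D1:**
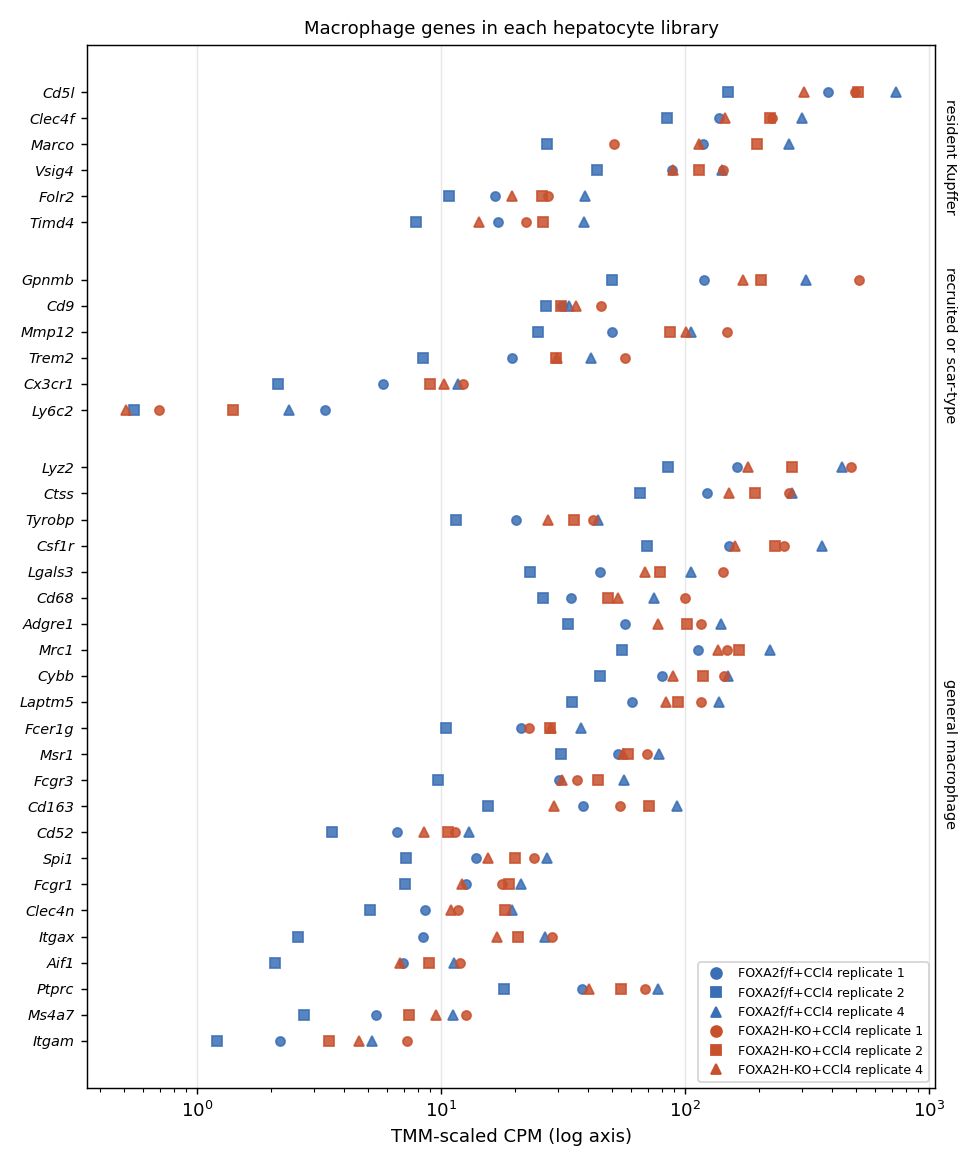
Level of each of the 35 macrophage genes in each library, in TMM-scaled CPM on a log axis; blue marks are FOXA2f/f+CCl4 libraries, red marks FOXA2H-KO+CCl4 libraries, and the shape gives the replicate. FOXA2f/f replicate 2 (blue square) is lowest for 34 of 35 genes, FOXA2f/f replicate 4 (blue triangle) is highest for 21, and the red marks lie between the outer blue marks for most genes.

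The largest differences lay among the control libraries. FOXA2f/f replicate 2 had the lowest level of 34 of the 35 members, against 29.2% of all genes, and FOXA2f/f replicate 4 had the highest level of 21, against 19.5% of all genes. FOXA2H-KO replicate 1 was highest for 13. The highest FOXA2f/f library exceeded the lowest by a median of 4.23 times over the members and 1.49 times over all genes, whereas the FOXA2H-KO libraries spanned 1.66 times over the members and 1.28 times over all genes. The 35 genes together took 0.189%, 0.0868% and 0.494% of the counts in FOXA2f/f replicates 1, 2 and 4, and 0.441%, 0.322% and 0.232% in FOXA2H-KO replicates 1, 2 and 4. All 3 FOXA2H-KO values lay inside the FOXA2f/f range.

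The outer control libraries set the size of these differences. Without FOXA2f/f replicate 2 the medians of the resident and general genes were no longer above 0. The recruited or scar-type genes each kept their sign, with a median still above 0. Without FOXA2f/f replicate 4, 26 of 35 members were higher in FOXA2H-KO at an unadjusted p under 0.05 (8.87% of all genes) and 27 had every FOXA2H-KO library above both remaining controls (18% of all genes). The 26 were 3 resident, 4 recruited or scar-type and 19 general genes, the smallest adjusted p was 0.201 by edgeR, and 0 members were called. There 34 of 35 members lay above 0, and the medians were 0.78 for resident, 1.43 for recruited or scar-type and 1.00 for general genes. Without FOXA2f/f replicate 2, 17 members lay above 0 and 18 below (49% of all genes were above 0), and the medians were -0.27, 0.30 and -0.00022. Leaving out FOXA2H-KO replicate 1 gave 31 members above 0 and a median of 0.30 for the recruited or scar-type genes. No label sets any of these libraries aside, so that the comparison of all 6 is the one described.

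Other cell types shared part of this pattern. The summed level of 11 endothelial markers was 328 CPM in FOXA2f/f replicate 2, the lowest, and 1115 CPM in FOXA2f/f replicate 4, the highest, and lay between 618 and 734 CPM in FOXA2H-KO. The lowest level of 10 of these 11 genes was in replicate 2 and the highest level of 10 in replicate 4. The 12 stellate cell and fibroblast markers summed to 1133 CPM in FOXA2f/f replicate 2, 2958 CPM in replicate 4 and 1384 CPM in replicate 1, against 1752 to 2722 CPM in FOXA2H-KO. The sum of the 10 hepatocyte markers ran the other way within FOXA2f/f, with 154499 CPM in replicate 2 and 111386 CPM in replicate 4. Most of that sum was Alb, with 124578 and 89394 CPM. Of the 10 genes, 6 had their highest level in replicate 2 and 1 its lowest, and 3 had their lowest in replicate 4. Dendritic cell markers summed to 7.29 to 21.01 CPM in FOXA2f/f and 16.3 to 19.1 CPM in FOXA2H-KO, and lymphocyte markers to 3.95 to 24.0 CPM and 14.0 to 20.0 CPM. The sum of the cholangiocyte markers, 368, 174 and 231 CPM in FOXA2f/f and 708, 252 and 588 CPM in FOXA2H-KO, was almost wholly Spp1, or osteopontin, which macrophages can also make, with 353, 164 and 222 CPM against 687, 241 and 573 CPM. The sums hide single genes. Of the 6 cholangiocyte markers tested, 2 had every FOXA2H-KO library above every FOXA2f/f library (4.54% of all genes) and 0 had every one below. The same counts, 2 above and 0 below, held for the 6 dendritic cell markers tested. In both lists 0 were called. All 8 immediate-early genes, which cell isolation is known to induce, had their lowest level in FOXA2f/f replicate 2. The part of non-parenchymal cell carry-over in the level of the macrophage genes was not tested.

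**Figure D2:**
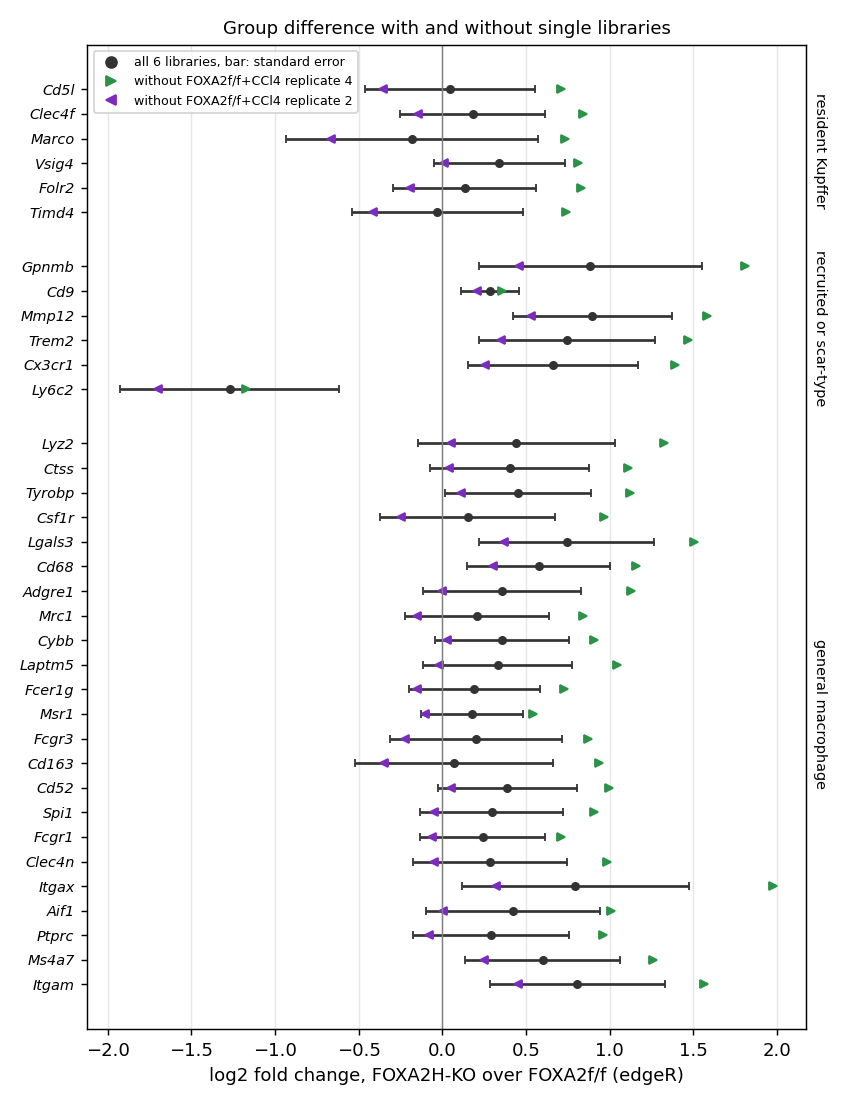
Fitted log2 fold change of each macrophage gene, FOXA2H-KO over FOXA2f/f (black circle with its standard error), with the value after leaving out FOXA2f/f replicate 4 (green) or FOXA2f/f replicate 2 (violet). The green and violet marks lie on opposite sides of the black circle for each gene, and the median over all 35 genes is 0.33 with all libraries, 0.97 without replicate 4 and -0.00022 without replicate 2.

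The resident Kupffer genes did not differ detectably between groups. Their fitted log2 fold changes ran from -0.18 to 0.34, with 4 above and 2 below 0. Ranked by level per length, Cd5l had the highest mean over the 6 libraries at 219 FPKM, followed by Clec4f at 68.8, Marco at 65.8, Vsig4 at 59.7, Folr2 at 22.3 and Timd4 at 10.03 FPKM. The means of Clec4f, Marco and Vsig4 lay close together, and whether these genes differed within libraries was not tested.

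Cd5l encodes a secreted scavenger protein of tissue macrophages, also called AIM, that binds lipids and cell debris. Its levels were 384, 149 and 733 CPM in FOXA2f/f replicates 1, 2 and 4 and 497, 508 and 305 CPM in FOXA2H-KO. All FOXA2H-KO values lay inside the FOXA2f/f range, and the log2 difference was 0.05 (95% interval -1.13 to 1.23). Clec4f, a galactose-binding C-type lectin that in mice is made almost only by Kupffer cells, had 138, 83.9 and 302 CPM in FOXA2f/f and 228, 221 and 146 CPM in FOXA2H-KO. Here too the FOXA2f/f libraries spanned all others, with a log2 difference of 0.18 (95% interval -0.83 to 1.19).

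Timd4 encodes TIM-4, a receptor for phosphatidylserine on dying cells that marks long-lived resident macrophages. It had 17.1, 7.84 and 38.6 CPM in FOXA2f/f and 22.1, 26.1 and 14.2 CPM in FOXA2H-KO, a log2 difference of -0.03 (SE 0.51). Vsig4, the complement receptor CRIg that captures opsonized bacteria, had 87.8, 43.3 and 142 CPM in FOXA2f/f and 143, 114 and 88.9 CPM in FOXA2H-KO, a log2 difference of 0.34 (SE 0.39). For both genes the groups overlapped. Folr2, a folate receptor of resident macrophages, had 16.5, 10.7 and 38.9 CPM in FOXA2f/f and 27.5, 25.9 and 19.5 CPM in FOXA2H-KO, a log2 difference of 0.13 (SE 0.43). Of the exonic bases of Folr2, 63.1% also belong to Gm10602 in GENCODE M21, and with a kit that does not mark strand reads from the shared part cannot be assigned to either gene with certainty.

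Marco, a scavenger receptor for bacteria and particles, stood apart from the other resident genes. Its levels were 118, 27.0 and 265 CPM in FOXA2f/f and 50.9, 197 and 114 CPM in FOXA2H-KO, a log2 difference of -0.18 (SE 0.75), with the largest standard error of the 35 members. The ratio of Marco to Clec4f in FPKM was 1.19 and 1.22 in FOXA2f/f replicates 1 and 4 and 1.24 and 1.09 in FOXA2H-KO replicates 2 and 4. In FOXA2f/f replicate 2 and FOXA2H-KO replicate 1 it was 0.448 and 0.312. The low ratio thus appeared in 1 library of each group.

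The recruited or scar-type genes had the higher medians, with wide overlap. In fitted values 5 of 6 were above 0 and Ly6c2 was below 0, and FOXA2H-KO replicate 1 had the highest level of 5 of the 6. Per length, Gpnmb had the highest mean at 32.6 FPKM, then Cd9 at 14.5, Mmp12 at 9.02, Trem2 at 5.28, Cx3cr1 at 1.28 and Ly6c2 at 0.340 FPKM.

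Gpnmb encodes a transmembrane glycoprotein of lysosomes that is abundant in lipid-laden macrophages. It had 120, 50.1 and 314 CPM in FOXA2f/f and 516, 205 and 173 CPM in FOXA2H-KO, a log2 difference of 0.89 (95% interval -0.66 to 2.43). FOXA2H-KO replicate 1 stood above all other libraries, and without it the difference was 0.23. Trem2, a lipid-sensing receptor that signals through Tyrobp, had 19.4, 8.39 and 41.1 CPM in FOXA2f/f and 56.5, 29.5 and 29.9 CPM in FOXA2H-KO, a log2 difference of 0.74 (SE 0.53). Its highest value was again in FOXA2H-KO replicate 1, and the other 2 FOXA2H-KO libraries lay inside the FOXA2f/f range.

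Mmp12, the macrophage elastase that degrades elastin and other matrix, had 49.9, 24.8 and 105 CPM in FOXA2f/f and 148, 86.6 and 101 CPM in FOXA2H-KO. The FOXA2f/f replicate 4 value lay between FOXA2H-KO values, so that the groups overlapped through that library, and the log2 difference was 0.90 (95% interval -0.21 to 2.00, unadjusted p = 0.0970, adjusted p = 0.951 by edgeR). Cd9, a tetraspanin that many cell types express beside macrophages, had 31.3, 26.9 and 33.3 CPM in FOXA2f/f and 45.2, 30.8 and 35.7 CPM in FOXA2H-KO, a log2 difference of 0.29 (SE 0.17). Its libraries differed far less than those of the other members. Cx3cr1, the fractalkine receptor of monocytes and monocyte-derived macrophages, had 5.76, 2.14 and 11.7 CPM in FOXA2f/f and 12.2, 8.94 and 10.2 CPM in FOXA2H-KO, a log2 difference of 0.66 (SE 0.51). FOXA2f/f replicate 4 lay among the FOXA2H-KO libraries for this gene too.

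Ly6c2, a surface antigen of inflammatory monocytes, was the scarcest member. It had 78, 10 and 75 counts in FOXA2f/f replicates 1, 2 and 4 and 19, 35 and 11 counts in FOXA2H-KO, or 3.35, 0.548 and 2.38 CPM against 0.699, 1.40 and 0.509 CPM. FOXA2f/f replicates 1 and 4 were high and replicate 2 lay among the FOXA2H-KO libraries, and the log2 difference was -1.27 (95% interval -2.79 to 0.25, unadjusted p = 0.0904, adjusted p = 0.949 by edgeR). Its close copy Ly6c1 had 10, 13 and 27 counts in FOXA2f/f and 5, 9 and 16 in FOXA2H-KO, and reads shared by both genes may have been assigned to either or to none.

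The same 2 FOXA2f/f libraries were high in several neutrophil genes. S100a9, a calcium-binding protein of neutrophils and monocytes, had 35.01, 1.81 and 18.9 CPM in FOXA2f/f and 3.24, 6.62 and 3.42 CPM in FOXA2H-KO. Ngp, a neutrophil granule protein, had 25.7, 2.25 and 12.4 CPM against 0.846, 2.09 and 0.694 CPM. The 10 neutrophil markers summed to 118, 11.1 and 76.8 CPM in FOXA2f/f and 27.2, 32.6 and 20.1 CPM in FOXA2H-KO, and 6 of the 9 tested were lower at an unadjusted p under 0.05 (3.18% of all genes), with 0 called. The other 3 did not follow this order: Retnlg was highest in FOXA2f/f replicate 4, and Cxcr2 and Csf3r, with log2 differences of 0.27 and 0.29, had FOXA2f/f replicate 1 below all FOXA2H-KO libraries. Ly6g, the defining surface marker of mouse neutrophils, had too few counts to be tested, at no more than 0.430 CPM in any library. It had 10, 0 and 7 counts in FOXA2f/f and 1, 0 and 1 in FOXA2H-KO, so that FOXA2f/f replicates 1 and 4 were again highest. The part of neutrophils or their precursors in the level of Ly6c2 was not tested.

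**Figure D3:**
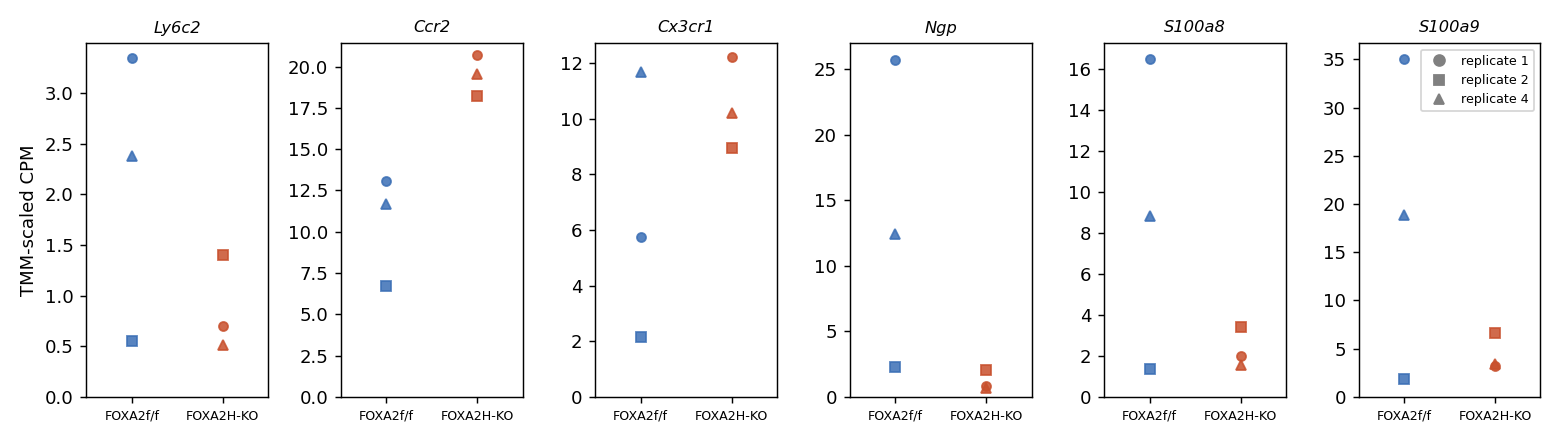
Levels of Ly6c2, Ccr2 and Cx3cr1, genes of monocytes, and of Ngp, S100a8 and S100a9, genes of neutrophils, per library in TMM-scaled CPM, each panel with its own axis from 0. Ly6c2 shares with the 3 neutrophil genes its high values in FOXA2f/f replicates 1 and 4, whereas for Ccr2 all FOXA2H-KO libraries, at 18.2 to 20.7, lie above all FOXA2f/f libraries, at 6.69 to 13.1.

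General macrophage genes were above 0 in fitted values for all 23 members, from 0.07 to 0.81, with unadjusted p-values from 0.163 to 0.910. All 23 had their lowest level in FOXA2f/f replicate 2, and 16 had their highest in FOXA2f/f replicate 4 and 7 in FOXA2H-KO replicate 1. Lyz2, lysozyme of macrophages and neutrophils, led at a mean of 224 FPKM and had 163, 85.1 and 438 CPM in FOXA2f/f and 477, 274 and 181 CPM in FOXA2H-KO (log2 difference 0.44, SE 0.59). Its copy Lyz1 had at most 37 counts in any library. Ctss, a lysosomal cysteine protease of antigen processing, followed at 104 FPKM with 123, 65.4 and 273 CPM in FOXA2f/f and 265, 194 and 152 CPM in FOXA2H-KO. Neither gene separated the groups.

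Tyrobp, the signalling adaptor of Trem2 also called DAP12, had 20.2, 11.5 and 43.9 CPM in FOXA2f/f and 41.7, 34.9 and 27.4 CPM in FOXA2H-KO. Csf1r, the receptor through which macrophages receive their survival signal, had 151, 69.6 and 362 CPM in FOXA2f/f and 254, 233 and 160 CPM in FOXA2H-KO. Adgre1, which encodes F4/80, had 56.8, 33.1 and 140 CPM in FOXA2f/f and 116, 102 and 77.1 CPM in FOXA2H-KO. For these 3 genes the FOXA2f/f libraries spanned all FOXA2H-KO values, and the log2 differences were 0.45 (SE 0.44), 0.15 (SE 0.52) and 0.36 (SE 0.47). Mrc1, the mannose receptor, which liver sinusoidal endothelial cells also make, had 113, 55.0 and 222 CPM against 149, 166 and 136 CPM and the same overlap.

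Lgals3, or galectin-3, and Cd68, a lysosomal membrane protein, had their highest level in FOXA2H-KO replicate 1. Lgals3 had 44.7, 23.2 and 105 CPM in FOXA2f/f and 143, 78.5 and 68.3 CPM in FOXA2H-KO, a log2 difference of 0.74 (SE 0.52). Cd68 had 33.9, 26.2 and 74.5 CPM in FOXA2f/f and 99.7, 48.3 and 52.9 CPM in FOXA2H-KO, a log2 difference of 0.58 (SE 0.43). In both genes FOXA2f/f replicate 4 lay above 2 of the 3 FOXA2H-KO libraries. The other 15 general genes had means from 0.577 FPKM for Itgam to 17.2 FPKM for Cybb and log2 differences from 0.07 for Cd163 to 0.81 for Itgam. Of the exonic bases of Itgam, 68.7% are shared with Gm49368, so that its counts are uncertain.

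Summed per length, the groups repeated this picture. The 6 resident genes summed to 335, 134 and 814 FPKM in FOXA2f/f replicates 1, 2 and 4 and to 523, 535 and 330 FPKM in FOXA2H-KO. The 6 recruited or scar-type genes summed to 35.5, 19.4 and 84.0 FPKM in FOXA2f/f and to 128, 56.6 and 54.4 FPKM in FOXA2H-KO. The mean sum was 1.08 times as high in FOXA2H-KO for resident genes, 1.72 times for recruited or scar-type genes and 1.36 times for general genes, in each case less than the standard deviation between FOXA2f/f libraries. The ratio of the recruited to the resident sum was 0.118 ± 0.0232 in FOXA2f/f and 0.172 ± 0.0699 in FOXA2H-KO (SD, n = 3). In FOXA2H-KO replicates 1 and 4 the ratio was 0.245 and 0.165, above 0.106, 0.145 and 0.103 in FOXA2f/f replicates 1, 2 and 4, and in FOXA2H-KO replicate 2 it was 0.106, inside the FOXA2f/f range. This order depended on Gpnmb. Without Gpnmb the ratio was 0.0624, 0.101 and 0.0459 in FOXA2f/f and 0.0968, 0.0535 and 0.0952 in FOXA2H-KO. All FOXA2H-KO values then lay inside the FOXA2f/f range. Without Marco the ratio was 0.126, 0.159 and 0.126 in FOXA2f/f and 0.259, 0.130 and 0.199 in FOXA2H-KO. In FOXA2H-KO replicate 1 the FPKM of Gpnmb was 0.851 times that of Clec4f, against 0.224 to 0.447 times in the other 5 libraries.

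**Figure D4:**
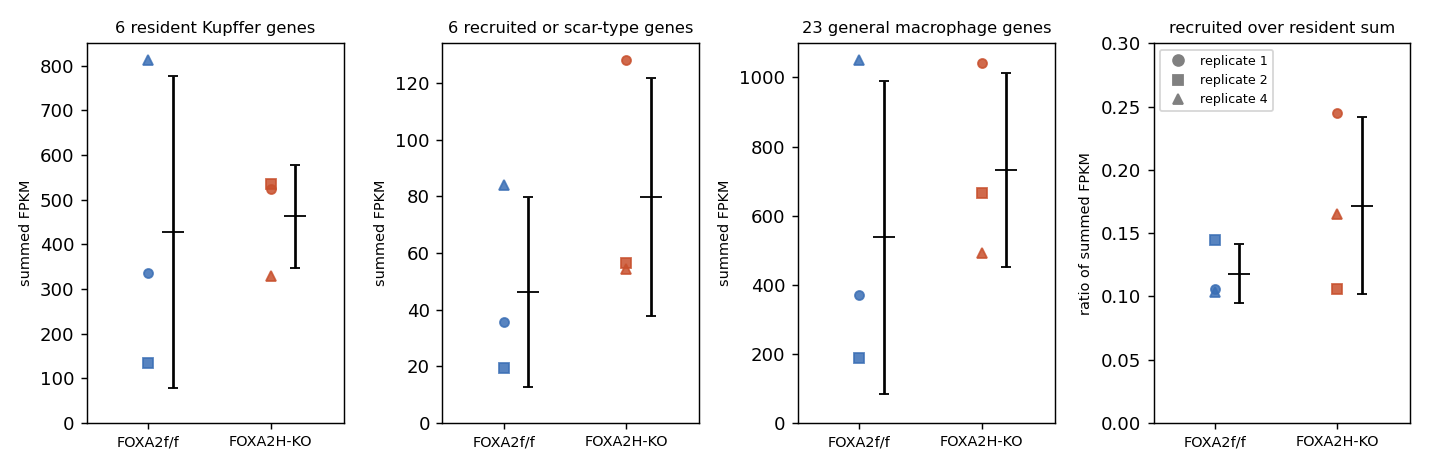
Summed FPKM of the resident, recruited or scar-type and general genes in each library, and the ratio of the recruited to the resident sum, with the mean and standard deviation of 3 libraries beside the points of each group; all axes start at 0. The FOXA2f/f points cover the range of the FOXA2H-KO points for the resident and general sums, and the highest recruited sum, 128, and the highest ratio, 0.245, belong to FOXA2H-KO replicate 1.

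To compare macrophage genes apart from the amount of macrophage RNA in a library, each gene's count was divided by the summed counts of C1qa, C1qb and C1qc, the subunits of complement C1q, which resident and recruited macrophages both make and which are not members. The C1q sum was 6134, 2721 and 18584 counts in FOXA2f/f and 13392, 10331 and 7730 in FOXA2H-KO. Most of the spread was gone on this scale: the highest FOXA2f/f library exceeded the lowest by a median of 1.28 times over the members, and FOXA2H-KO libraries spanned 1.33 times. Laptm5, a lysosomal membrane protein of blood-derived cells, was nearly constant at 0.225 to 0.236 counts per C1q count in all 6 libraries. This scale was chosen after the values were seen.

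On the C1q scale 3 members had every FOXA2H-KO library above every FOXA2f/f library (0.652% of all genes) and 2 had every one below (3% of all genes). Those shares of all genes are mostly from genes of hepatocytes, whose ratio to C1q spread by a median of 4.17 times among FOXA2f/f libraries over all genes, and are no measure of other macrophage genes. Of the 26 other macrophage genes, 1 was above and 5 were below. Each of these differences had an exact two-sided permutation p of 0.1, the smallest that 3 against 3 libraries allow. Any full separation gives this value, so that it adds nothing to the separation itself.

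The members above were Mmp12, Lgals3 and Itgax. Mmp12 had 0.189, 0.166 and 0.178 counts per C1q count in FOXA2f/f and 0.301, 0.209 and 0.282 in FOXA2H-KO, a ratio of means of 1.48. Lgals3 had 0.170, 0.155 and 0.178 in FOXA2f/f and 0.291, 0.189 and 0.191 in FOXA2H-KO, a ratio of means of 1.33. Replicate 2 was the FOXA2H-KO library nearest to the controls for both genes, and for Lgals3 replicate 4 was about as near. Itgax, which encodes the integrin CD11c of dendritic cells and some macrophages, had 0.0320, 0.0173 and 0.0450 in FOXA2f/f and 0.0576, 0.0498 and 0.0472 in FOXA2H-KO, a ratio of means of 1.64.

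The members below were Folr2 and Ly6c2. Folr2 had 0.0628, 0.0720 and 0.0659 counts per C1q count in FOXA2f/f and 0.0558, 0.0626 and 0.0545 in FOXA2H-KO, a ratio of means of 0.862. Ly6c2 had 0.0127, 0.00368 and 0.00404 against 0.00142, 0.00339 and 0.00142, a ratio of means of 0.305. For all 5 genes the nearest libraries of the 2 groups had overlapping exact 95% intervals from counting error alone, for instance 0.178 to 0.202 in FOXA2f/f replicate 1 and 0.199 to 0.219 in FOXA2H-KO replicate 2 for Mmp12. With Csf1r or Laptm5 in place of C1q, Mmp12, Lgals3, Itgax and also Cx3cr1 were above, and Gpnmb was above with Csf1r alone. Ly6c2 was below with each reference, and Folr2 then overlapped. Csf1r and Laptm5 are themselves members. Because Laptm5 was nearly constant per C1q count, its scale is close to the C1q scale and is no separate check.

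**Figure D5:**
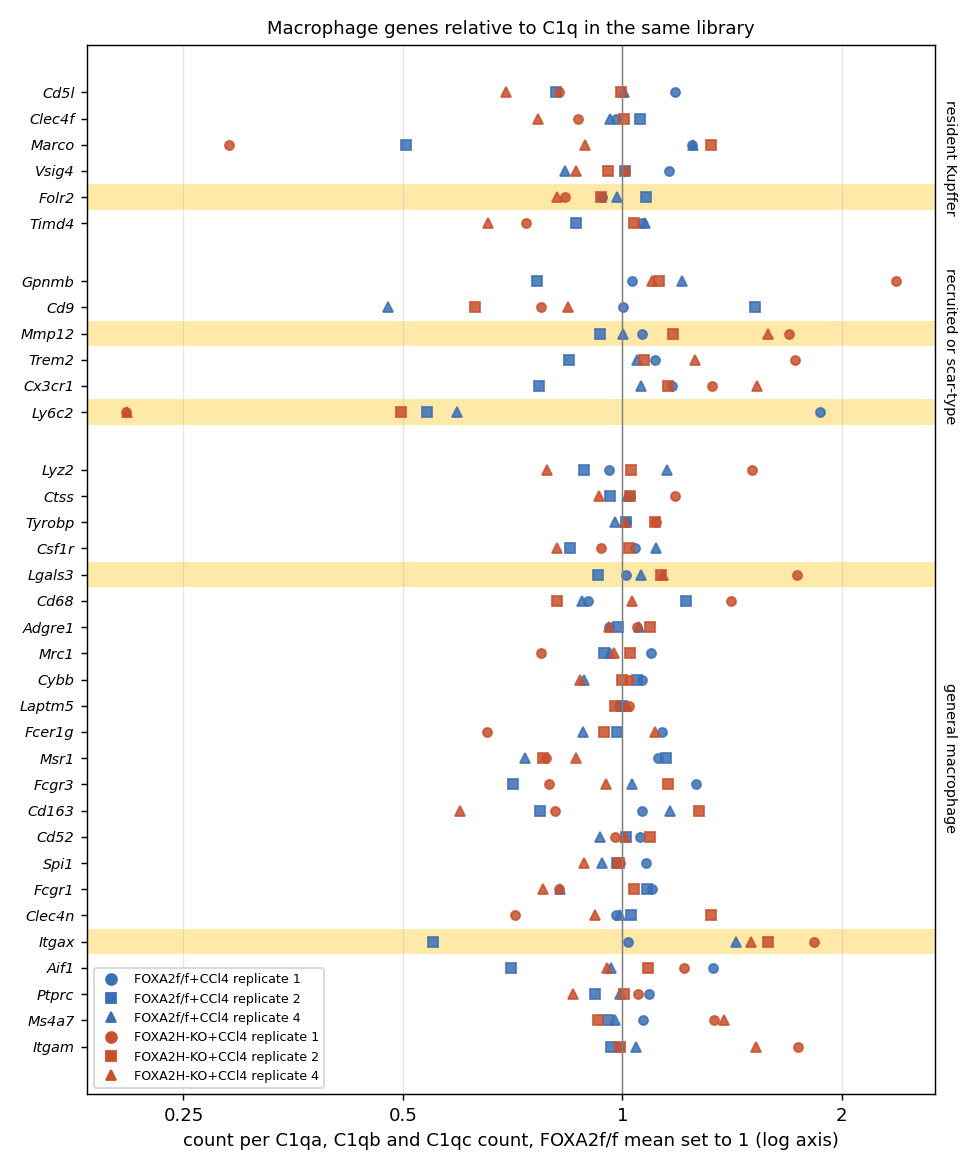
Count of each macrophage gene per count of C1qa, C1qb and C1qc in the same library, divided by the FOXA2f/f mean, on a log axis; shaded rows are the 5 genes whose groups do not overlap. Most genes lie close to 1 in every library, Mmp12, Lgals3 and Itgax have all red marks to the right of the blue ones, and Folr2 and Ly6c2 have all red marks to the left.

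A fit over all genes with the log2 C1q level as a covariate, also added after the values were seen, lowered the median standard error of the members from 0.470 to 0.171. At an unadjusted p under 0.05, 2 members were higher in FOXA2H-KO (3.84% of all genes) and 1 was lower (3.64% of all genes). Mmp12 had a log2 difference of 0.54 (SE 0.17, adjusted p = 0.562) and Itgax one of 0.44 (SE 0.14, adjusted p = 0.540), while Ly6c2 had -1.57 (SE 0.65, adjusted p = 0.656) by edgeR's quasi-likelihood test. None was called. In this fit the resident genes had a median of -0.26, the recruited or scar-type genes 0.34 and the general genes 0.0040.

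Of 26 further macrophage genes, growth factors and their receptors, transcription factors and surface proteins, 22 were above and 4 below 0 in the fit without the covariate, with a median of 0.33. The leading ones by level, C1qb, C1qa and Mpeg1, a pore-forming protein of macrophages, had log2 differences of 0.32 (SE 0.44), 0.36 (SE 0.44) and 0.48 (SE 0.33). In this list 1 of 26 was higher at an unadjusted p under 0.05 (1.98% of all genes) and 0 were lower (3.18%), a share near that of all genes, and 0 were called. That gene, Ccr2, is named after its values were seen. Ccr2, the receptor by which monocytes leave the bone marrow and enter inflamed tissue, had 304, 122 and 367 counts in FOXA2f/f and 563, 455 and 423 in FOXA2H-KO, or 13.1, 6.69 and 11.7 CPM against 20.7, 18.2 and 19.6 CPM. In CPM all FOXA2H-KO libraries were above all FOXA2f/f libraries, with a log2 difference of 0.89 (SE 0.24, unadjusted p = 0.00702, adjusted p = 0.689 by edgeR), and it was 0.74 (adjusted p = 0.514) with the C1q covariate. On the C1q scale the groups overlapped for Ccr2. It had 0.0496, 0.0448 and 0.0197 counts per C1q count in FOXA2f/f and 0.0420, 0.0440 and 0.0547 in FOXA2H-KO. Ccr2 and Ly6c2, both carried by inflammatory monocytes, thus had fitted differences of opposite sign in the same libraries.

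Promoters from RefSeq (GRCm38.p6, 250 bases before to 50 after the start, first listed start of each gene) were found for 28 of 35 members. There was none for Cd52, Tyrobp, Clec4n, Adgre1, Csf1r, Msr1 and Spi1. GAGGAA, the core bound by PU.1 (encoded by Spi1), the factor that specifies macrophages, was searched on both strands and stood in 17 of 28 member promoters, 60.7%, against 28.3% of 27025 promoters. It stood in 3 of 6 resident, 3 of 6 recruited or scar-type and 11 of 16 general promoters. CACGTG, the E-box of the lysosomal factors MITF and TFEB, which reads the same on both strands, stood in 0 of 28 against 7.24%, so that no match of one motif overlapped a match of the other in a member. The members were not chosen by sequence, and a match is a description of letters in this window.

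The 250 bases before the start are given for the 5 members whose groups did not overlap on the C1q scale, 5′ to 3′ on the strand of the gene, with GAGGAA or its reverse complement in capitals.
Mmp12, chr9:7344147-7344396, plus strand: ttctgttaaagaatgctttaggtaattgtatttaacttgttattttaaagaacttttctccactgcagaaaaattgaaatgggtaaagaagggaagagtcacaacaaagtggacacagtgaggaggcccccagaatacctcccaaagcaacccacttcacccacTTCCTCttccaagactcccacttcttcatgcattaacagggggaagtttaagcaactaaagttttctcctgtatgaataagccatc
Lgals3, chr14:47373610-47373859, plus strand: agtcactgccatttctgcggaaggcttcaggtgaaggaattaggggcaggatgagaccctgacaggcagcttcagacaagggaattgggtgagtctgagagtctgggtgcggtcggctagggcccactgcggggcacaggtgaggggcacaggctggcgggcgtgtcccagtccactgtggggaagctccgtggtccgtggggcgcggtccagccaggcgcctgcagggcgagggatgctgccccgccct
Itgax, chr7:128129300-128129549, plus strand: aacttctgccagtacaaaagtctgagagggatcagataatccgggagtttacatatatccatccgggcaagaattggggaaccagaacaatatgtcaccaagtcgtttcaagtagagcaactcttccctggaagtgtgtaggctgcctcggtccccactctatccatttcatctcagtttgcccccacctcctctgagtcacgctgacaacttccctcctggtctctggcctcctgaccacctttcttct
Folr2, chr7:101857191-101857440, minus strand: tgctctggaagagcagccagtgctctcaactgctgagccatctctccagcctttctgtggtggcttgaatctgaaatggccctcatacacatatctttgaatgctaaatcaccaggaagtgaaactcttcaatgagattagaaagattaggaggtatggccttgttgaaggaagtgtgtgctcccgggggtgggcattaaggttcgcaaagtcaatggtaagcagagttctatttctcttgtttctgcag
Ly6c2, chr15:75111972-75112221, minus strand: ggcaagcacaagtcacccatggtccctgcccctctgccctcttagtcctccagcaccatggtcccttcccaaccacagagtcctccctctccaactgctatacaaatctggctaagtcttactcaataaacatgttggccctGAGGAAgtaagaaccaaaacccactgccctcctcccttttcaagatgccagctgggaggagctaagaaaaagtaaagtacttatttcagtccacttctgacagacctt
Mmp12 and Ly6c2, on opposite sides in the comparison, each had 1 match, at 86 and 108 bases before the start, and Lgals3, Itgax and Folr2 had none in these bases. The coordinates are those of GRCm38, which is also the build named in the submitters' processing notes as mm10.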

How the data were processed

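Poly-A RNA of primary hepatocytes was sequenced as paired-end TruSeq libraries, 3 per group. The submitters' processing notes name CASAVA 1.8, TopHat2 2.1.0, HTSeq, edgeR and the build mm10. For each library the authors deposited whole-number counts per Ensembl gene, without normalization, and FPKM, which they scaled by gene length and library total. A further table of the whole series was not used here, and any columns of the authors' own comparisons were left out.

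The quasi-likelihood test of edgeR 4.0.16 under R 4.3.3 was fitted to the counts (scaling by TMM; filterByExpr kept 14417 genes and all 35 members; Benjamini-Hochberg adjustment over all genes tested). A gene was called at an adjusted p under 0.05 and a fold change of at least 2. CPM were TMM-scaled and compared between libraries, and FPKM compared genes with each other. For single ratios the exact permutation test, two-sided, was used. Total counts of 20983455 to 28327765 set the counting precision, and intervals on ratios are exact (Clopper-Pearson) and cover counting error only, since reads carry no molecular identifiers. No 2 libraries of a group were alike within sampling noise.

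The members, the lists of other cell types and immediate-early genes and the tests were chosen with earlier results of these data known. The genes named were all resident and recruited or scar-type members, the 8 general members with the highest mean FPKM, any general member at an unadjusted p under 0.05, and up to 3 genes of another list by mean FPKM. Itgax, Laptm5, Itgam, Cd163, Cybb, Ly6g, Retnlg, Cxcr2, Csf3r and Ccr2 are outside this rule and were named after their values were seen. So were Msr1, Fcgr1, Fcgr3, Fcer1g, Spi1, Clec4n and Ptprc, for their sign without FOXA2f/f replicate 2. The copies Ly6c1 and Lyz1 were named beside their members. Alternatives were DESeq2 1.42.0, upper quartile and library-size scaling, edgeR's exact test, other filters, limma 3.58.1 on log2(FPKM + 1) where the mean FPKM reached 1, each library left out, and a replicate block. The C1q ratio, its other references and the C1q covariate were added after seeing the data. The tests were checked on simulated counts of independent genes. Those counts lack the spread that the members share across libraries, so the check does not speak for the members. Positions and overlaps came from GENCODE M21.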

Additional observations from a re-analysis of the deposited data

How the results depend on the processing

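No macrophage gene was called under any alternative with all or 5 of the 6 libraries. The number of genes called over the whole table was 1 in the edgeR quasi-likelihood test, 254 at unadjusted p-values, 70 with DESeq2, 64 with edgeR's exact test, 2 without a filter beyond 1 count, 0 with library-size scaling, 0 with limma on FPKM, 0 with the replicate block and 0 to 6 with 1 library left out. Members higher in FOXA2H-KO at unadjusted p under 0.05 were 1 without the filter, 1 with the replicate block and 2 with the C1q covariate. Members lower at that threshold were 1 with the C1q covariate and 1 without FOXA2f/f replicate 2. With 1 library left out, 0 to 26 members were higher at that threshold. Those with every FOXA2H-KO library above every FOXA2f/f library were 0 to 27, both counts highest without FOXA2f/f replicate 4. The median over resident genes then ran from -0.27 to 0.78, over recruited or scar-type genes from 0.30 to 1.43, over general genes from -0.00022 to 1.00 and over all members from -0.00022 to 0.97. With Csf1r as the reference 5 members were above and 1 below, and with Laptm5 1 was below. The Foxa2 log2 fold change was -3.74 with library-size scaling, -1.95 with limma on FPKM and -3.88 with the block, each at an adjusted p above 0.05, and -4.17 to -3.63 with 1 library left out, where the call held only without FOXA2f/f replicate 2 (adjusted p = 0.0340 by edgeR). Library-size scaling moved the median of all genes to 0.10, and limma on FPKM tested 33 members, without Ly6c2 and Itgam. Timd4 turned to 0.0065 with library-size scaling, 0.28 with limma on FPKM and 0.22 with the block, and Marco to 0.25 with limma on FPKM. With the C1q covariate Clec4f was at -0.16, Cd5l at -0.34, Vsig4 at -0.0080, Folr2 at -0.19, Lyz2 at -0.017, Csf1r at -0.22 and Mrc1 at -0.096. Of the 20 members named with their values, those whose sign turned with 1 library left out were Clec4f (-0.15 to 0.84), Timd4 (-0.42 to 0.74), Cd5l (-0.35 to 0.71), Marco (-0.73 to 0.73), Folr2 (-0.19 to 0.83), Lyz2 (-0.0059 to 1.33), Csf1r (-0.25 to 0.97), Adgre1 (-0.00022 to 1.13) and Mrc1 (-0.15 to 0.84). Of the other general members, Cd163, Msr1, Fcgr1, Fcgr3, Fcer1g, Laptm5, Spi1, Clec4n and Ptprc were below 0 without FOXA2f/f replicate 2. The cause of these changes was not tested. The replicate numbers did not pair the libraries: same-numbered libraries correlated at -0.069, 0.026 and -0.23 in their deviations from the group means. The median standard error of the members was 0.470 with 3 libraries per group.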
